A study of Bos taurus with 16 samples.

Results

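The MCM helicase and replication licensing genes described here are the 6 subunits of the replicative helicase (MCM2, MCM3, MCM4, MCM5, MCM6 and MCM7), its loaders CDC6 and CDT1, the licensing inhibitor geminin (GMNN) and the sliding clamp PCNA. They were chosen by name. Each of the 10 names matched exactly 1 of the 27393 loci in the deposited data. RNA-Seq values of single bovine mature oocytes (MII) and of single embryos developed in vivo were available for 8 stages with 2 samples per stage: MII, 2-cell (2C), 4-cell (4C), 8-cell (8C) and 16-cell (16C) embryos, early morulae (EM), compact morulae (CM) and blastocysts (BL). The labels name no treatment, breed, age or batch. RNA of each single oocyte or whole embryo was amplified before sequencing on the SOLiD platform.

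DNA replication is licensed when the origin recognition complex, CDC6 and CDT1 load the ring of MCM2 to MCM7 onto origins ahead of S phase. Geminin binds CDT1 and keeps origins from being licensed again within the same cycle, and PCNA holds the polymerases on DNA once forks are running. Until embryonic genome activation (EGA), an embryo relies largely on transcripts and proteins stored in the oocyte. The study places EGA from 4C to 8C in embryos developed in vivo.

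Samples up to 4C are called before EGA here and samples from 8C on after it. Levels are given as normalised reads, the unit of the deposited data, whose values behave as the number of reads on a locus divided by a factor of the sample. They are relative to the other transcripts of the sample. A fall of a transcript and a rise of the others therefore cannot be told apart, and amounts per embryo or per cell are not known. Since the values are not divided by gene length, they are compared between samples and not between genes. The read counts could be recovered, and 607672 to 3379426 reads were found per sample. Depending on the sample, 3 reads, used here as the limit of detection, came to between 1.09 and 5.4 normalised reads, which covers counting error only. The sum of 10 oocyte markers lay between 4362 and 25510 normalised reads in MII, 2C and 4C samples. The 8C embryos differed in it, with 157 in replicate 1 and 1917 in replicate 2, and the later embryos held between 29.4 and 191. Before EGA this sum was mostly on H1FOO, with a mean of 9285, and H1FOO held 30.6 and 1606 in the 8C embryos. All 6 oocyte markers that could be tested were lower after EGA, and BMP15 had no read in any sample. The sum of 8 inner cell mass and trophectoderm markers lay between 308 and 540 normalised reads before EGA and between 1893 and 8669 after it, mostly on POU5F1, while CDX2 had 1 read in all samples together.

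CDC6, the ATPase that recruits the helicase with CDT1, had the steepest course of the 10 genes. MII oocytes held 93.2 and 20.2 normalised reads of CDC6 (XLOC_027342), 2C embryos 106 and 182, and 4C embryos 273 and 278. In 8C embryos the values were 9.01 and 27.5, in 16C embryos 4.35 and 3.23, in EM 4.64 and 8.99, in CM 7.76 and 5.63, and in BL 7.10 and 6.34. Both 4C embryos thus lay above both 2C embryos and these above both oocytes, and all samples from the 8-cell stage on except 8C replicate 2 lay below the lower oocyte. The reads behind these values were 296 and 342 in 4C, 5 and 24 in 8C, and 4 and 2 in 16C embryos.

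From 4C to 8C, CDC6 fell by 4.03 on the log2 scale (standard error, SE, 0.75, limma adjusted p = 9.9e-04), from 275 ± 3.35 to 18.3 ± 13.1 normalised reads (SD, n = 2). Of all 9670 loci tested at this step, 36.8% passed the threshold in either direction and 19.1% were lower, and 499 loci, or 5.16%, had a fitted change as low as that of CDC6 or lower. The fall passed the threshold in each of the 25 alternatives tried, with log2 changes between -4.79 and -3.28. CDC6 was the only one of the 10 genes called at this step.

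Before EGA the direction was the opposite. From MII to 4C the level of CDC6 rose by a log2 change of 2.63 (SE 0.75, limma adjusted p = 0.0424), while 6.48% of the loci tested were called higher and 2.19% lower at this step. Of the 9670 loci, 794 had a change as high or higher. This call stood close to the threshold and passed in 10 of 25 alternatives. It was lost without MII replicate 2, where the log2 change was 1.55 (limma adjusted p = 0.357), without 4C replicate 1 (adjusted p = 0.192) or 4C replicate 2 (adjusted p = 0.18), and without any 1 of the 8 samples of 16C, EM, CM and BL, which left the change as it was and gave adjusted p values of 0.0535 to 0.0607, and under 4 alternatives that kept all samples of both stages. The MII oocytes held 101 and 19 reads of CDC6, a 4.61-fold difference in normalised reads, against at most 3.06-fold between the replicates of any later stage.

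Over the periods, CDC6 held 159 ± 104 normalised reads (SD, n = 6) in MII, 2C and 4C samples and 8.46 ± 6.97 (SD, n = 10) from 8C on. The fitted log2 change was -3.88 (SE 0.52, limma adjusted p = 1.2e-06), a 14.8-fold lower level, and it lay between -4.38 and -3.34 in all 25 alternatives. The periods overlapped only through MII replicate 2 and 8C replicate 2. The same 8C embryo also had the higher sum of oocyte markers, mostly on H1FOO, and the part of this in its value was not tested. A list of 10 cumulus and granulosa cell markers also moved with the periods. It summed to between 113 and 402 normalised reads before EGA and to between 4.43 and 95.8 after it, before EGA mostly on HAS2 (a mean of 251, and 3.81 after EGA), with AMH at 0 in every sample. Of the 2 markers of this list that could be tested, HAS2 was lower and LHCGR higher after EGA. A list of 5 oviduct markers summed to at most 91.8 normalised reads, nearly all on OVGP1 in 2C replicate 1, with FOXJ1 and OXT at 0. The part of such cells in the result was not tested.

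**Figure D1:**
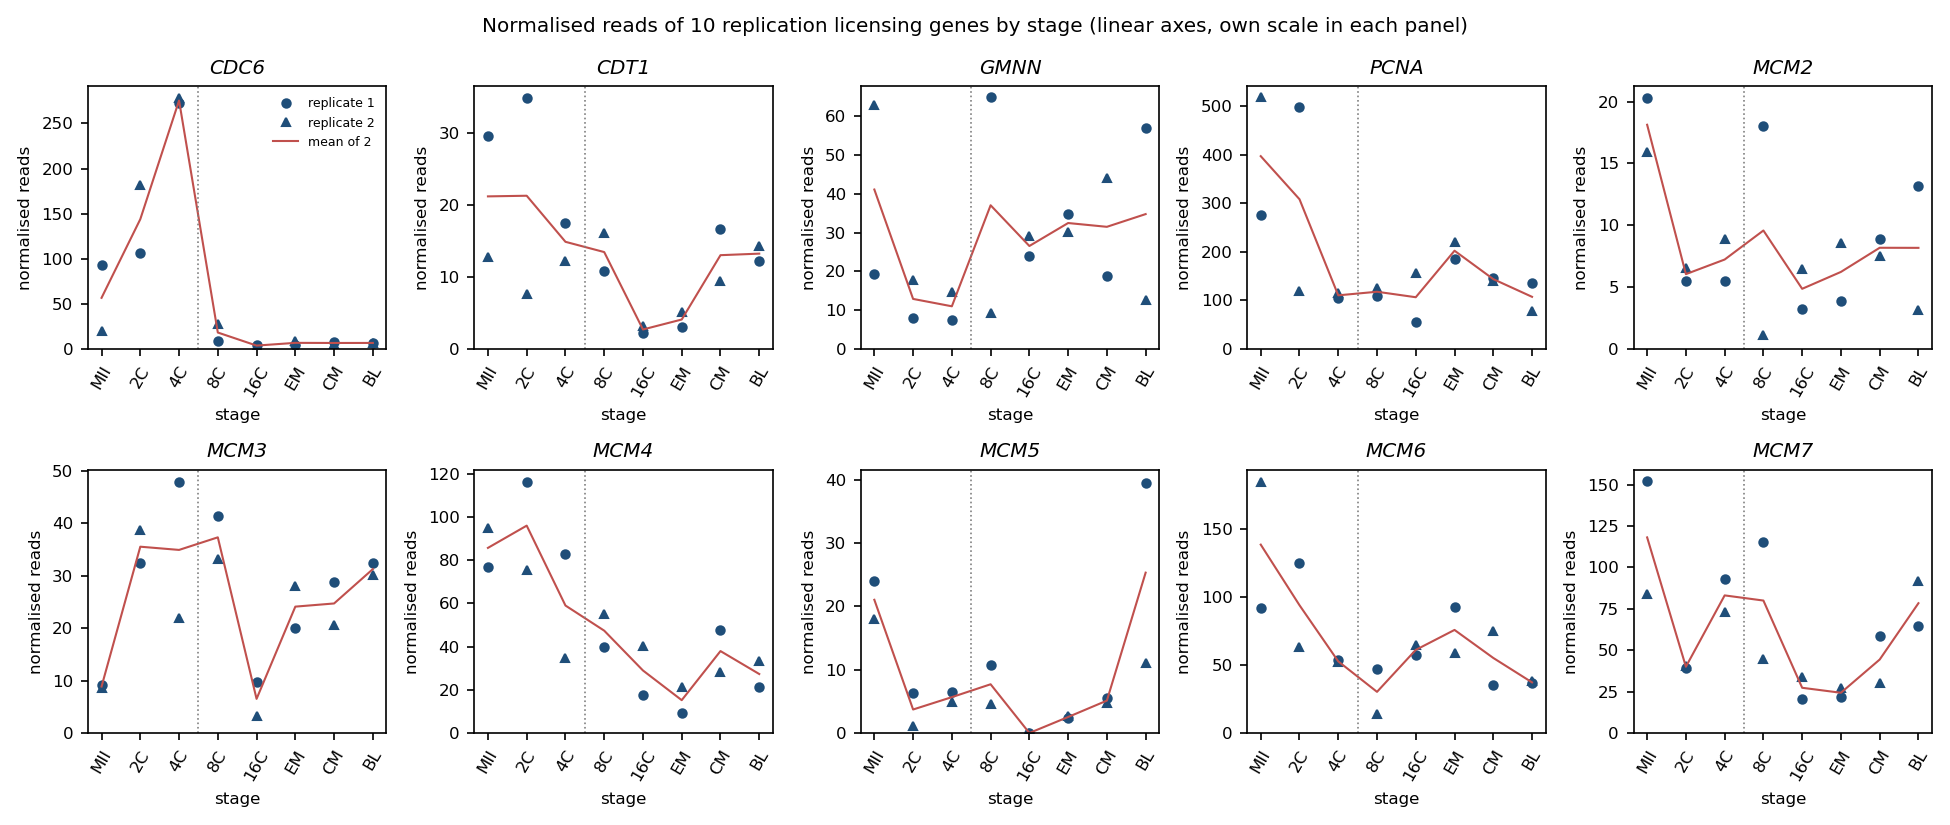
Normalised reads (linear axis from 0, own scale in each panel) of the 10 genes by stage, with circles for replicate 1, triangles for replicate 2 and a line through the mean of both. The dotted line marks EGA. The plot shows CDC6 at 273 and 278 in 4C and at 9.01 and 27.5 in 8C, whereas the fitted changes of the other genes at this step lie between -1.02 and 1.18.

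CDT1, the partner of CDC6 in loading the helicase, had 2 to 44 reads per sample. MII oocytes held 29.5 and 12.8 normalised reads of CDT1 (XLOC_023824), 2C embryos 34.8 and 7.66, 4C embryos 17.5 and 12.2, and 8C embryos 10.8 and 16.1. The lowest values were those of 16C embryos, at 2.18 and 3.23, and of EM, at 3.09 and 5.08, followed by 16.6 and 9.38 in CM and 12.2 and 14.3 in BL. Both 16C values came from 2 reads and lay below the limit of detection. The stages from MII to BL without 16C and EM overlapped with their neighbours in the order of levels, while both EM and both 16C samples lay below all of them. The mean was 19.1 ± 10.7 (SD, n = 6) before EGA and 9.29 ± 5.56 (SD, n = 10) after it. The log2 change of -1.03 (SE 0.49, limma adjusted p = 0.0653) did not pass the threshold. It passed with a log2 change of -1.24 without 2C replicate 2 (limma adjusted p = 0.039), and also without 8C replicate 2 (adjusted p = 0.0433), without CM replicate 1 (adjusted p = 0.0476), without both 8C embryos (-1.21, adjusted p = 0.0392) and by edgeR (-1.19, adjusted p = 0.0408). Scaled by total reads it was -0.58 (limma adjusted p = 0.31). The stage effect of CDT1 did not pass (limma adjusted p = 0.0707), but did without 2C replicate 2 (limma adjusted p = 0.0243). In the reference annotation, CDT1 overlaps APRT, a purine salvage enzyme. Whether the authors counted by strand is not given in the sources used here, so reads of the overlap cannot be assigned with certainty.

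GMNN (XLOC_039880), the inhibitor that binds CDT1, had no stage effect past the threshold (limma adjusted p = 0.548) and differed widely between replicates. MII oocytes held 19.4 and 62.8 normalised reads, 2C embryos 7.91 and 17.9, and 4C embryos 7.38 and 14.6. From EGA on the values were 64.9 and 9.18 in 8C, 23.9 and 29.1 in 16C, 34.8 and 30.1 in EM, 18.8 and 44.1 in CM, and 56.8 and 12.7 in BL. The 8C embryos thus differed by 7.07-fold, with 36 and 8 reads. The 2C and 4C embryos lay below all samples of 16C, EM and CM, and overlapped with 8C and BL through 1 embryo of each.

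For GMNN the mean before EGA was 21.7 ± 20.7 (SD, n = 6) and after it 32.4 ± 18.2 (SD, n = 10), a log2 change of 0.72 (SE 0.48, limma adjusted p = 0.194). Scaled by the total reads of each sample the log2 change was 1.17 (limma adjusted p = 0.0314), which passed, and without MII replicate 2 it was 1.09 (limma adjusted p = 0.0431). The call therefore turned on the scaling and on 1 oocyte.

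Ratios of reads within a sample do not depend on the scaling. The log2 ratio of CDC6 to CDT1 reads was 1.64 and 0.64 in MII oocytes, 1.60 and 4.54 in 2C, and 3.93 and 4.47 in 4C embryos. From 8C on it lay between -1.08 and 0.85, with a median of -0.12 over 10 samples. Only MII replicate 2 fell within the later range. The log2 ratio of GMNN to CDT1 ranged from -2.08 to 2.25 before EGA, with a median of -0.17, and from -0.77 to 3.34 after it, with a median of 2.33. In 16C and EM embryos all 4 ratios lay between 2.52 and 3.34, above every sample before EGA. CDT1 had 2 reads in each 16C embryo, below the 3 reads used as the limit of detection, and 4 and 13 reads in EM. Changes of the ratios were not tested.

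**Figure D2:**
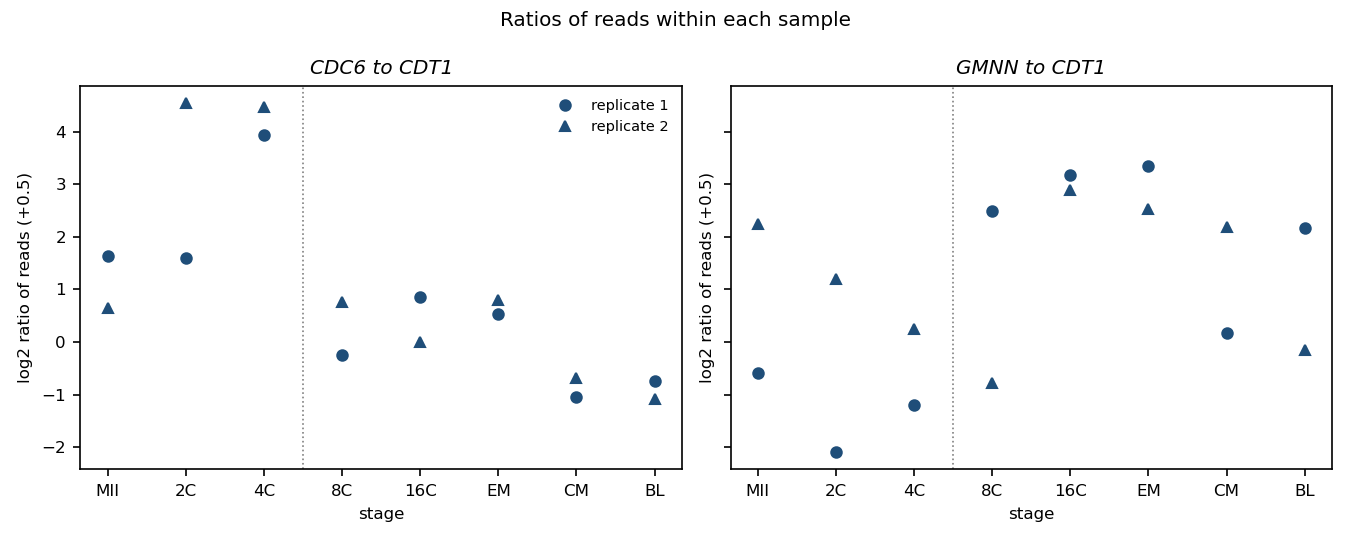
Log2 ratio of reads within each sample (0.5 added to both read numbers) by stage for CDC6 to CDT1 and GMNN to CDT1, with circles for replicate 1, triangles for replicate 2 and a dotted line at EGA. CDC6 to CDT1 is highest in 2C replicate 2, at 4.54, and in both 4C embryos, at 3.93 and 4.47, and GMNN to CDT1 is highest in 16C and EM, between 2.52 and 3.34. CDT1 had 2 reads in each 16C embryo.

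PCNA (XLOC_012771), the sliding clamp, was detected with 50 to 630 reads in every sample. MII oocytes held 276 and 519 normalised reads, 2C embryos 498 and 119, and 4C embryos 105 and 116. The later values were 109.9 and 126 in 8C, 56.6 and 157 in 16C, 185 and 219.7 in EM, 147 and 141 in CM, and 136 and 79.2 in BL. The replicates of 2C differed by 4.19-fold, and those of 4C, 8C, EM and CM by at most 1.18-fold. Both oocytes lay above every sample from 4C on, and EM lay above CM, 8C and 4C without overlap.

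Neither the stage effect of PCNA (limma adjusted p = 0.114) nor the difference between 272 ± 194 before EGA (SD, n = 6) and 136 ± 47.6 after it (SD, n = 10) passed the threshold. The log2 change was -0.76 (SE 0.41, limma adjusted p = 0.102). It passed by edgeR (-1.08, adjusted p = 0.0233), by DESeq2 (adjusted p = 0.0281) and without 4C replicate 1 (-0.97, limma adjusted p = 0.0472). A stage effect was found without 2C replicate 2 (limma adjusted p = 0.0199) and by DESeq2 (adjusted p = 0.0225). Scaled by total reads, the log2 change at EGA was -0.28.

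The 6 MCM genes code for the ring that unwinds DNA, in which each subunit is present once. Summed within a sample they held 375 and 406 normalised reads in MII, 325 and 226 in 2C, 289.6 and 196 in 4C, and 272 and 153 in 8C. The sums were 109 and 149 in 16C, 149.9 and 147 in EM, 185 and 166 in CM, and 208 in both BL. The oocytes were highest, 8C replicate 1 and both BL lay within the range of the 2C and 4C embryos, and the other samples from 8C on lay below it. The mean was 303 ± 82.5 (SD, n = 6) before EGA and 175 ± 45.6 (SD, n = 10) after it. No test of the sum was made.

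MCM4 (XLOC_014901) was the only one called of the 4 subunits tested between the periods, beside 66.8% of all loci called and 29.9% called lower. It held 76.6 and 94.7 normalised reads in MII, 116 and 75.5 in 2C, 83.0 and 34.9 in 4C, and 39.6 and 55.1 in 8C. In 16C the values were 17.4 and 40.4, in EM 9.27 and 21.1, in CM 47.7 and 28.1, and in BL 21.3 and 33.3. Every oocyte and 2C embryo lay above every sample from 8C on, and 4C replicate 2 lay among the later ones.

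The level of MCM4 was 80.2 ± 26.9 before EGA (SD, n = 6) and 31.3 ± 14.5 after it (SD, n = 10). It fell by 1.40 on the log2 scale (SE 0.39, limma adjusted p = 0.0034), or 2.64-fold, with no call at the step from 4C to 8C alone (log2 change -0.20, limma adjusted p = 0.831). The call held in 24 of 25 alternatives and was lost with total reads as the scale (-0.92, limma adjusted p = 0.0539). Its stage effect (limma adjusted p = 0.0228) was lost under the same scaling (adjusted p = 0.255) and without 2C replicate 1 (adjusted p = 0.0521) or EM replicate 1 (adjusted p = 0.0889).

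MCM6 (XLOC_030062) and MCM7 (XLOC_043160) had their highest stage means in oocytes. For MCM6 these held 92.3 and 185 normalised reads, the 2C embryos 125 and 63.1, and the 4C embryos 53.5 and 52.0. The 8C embryos held 46.8 and 13.8, the 16C embryos 57.7 and 64.7, EM 92.7 and 59.0, CM 35.5 and 75.1, and BL 36.5 and 38.0. The lowest value was that of 8C replicate 2. Stages that were neighbours in the order of levels overlapped, except 4C and BL. The log2 change at EGA was -0.85 (SE 0.40, limma adjusted p = 0.0655). It passed by edgeR (adjusted p = 0.0321) and DESeq2 (adjusted p = 0.0479) and, by limma, without 4C replicate 1 (adjusted p = 0.0482), 4C replicate 2 (adjusted p = 0.0464) or EM replicate 1 (adjusted p = 0.0427). Scaled by total reads it was -0.37 (limma adjusted p = 0.455). The stage effect of MCM6 did not pass (limma adjusted p = 0.0889), but did with TMM factors (adjusted p = 0.0465) and without 8C replicate 1 (adjusted p = 0.024).

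MCM7 held 152 and 84.0 normalised reads in MII, 39.6 and 40.5 in 2C, 93.2 and 73.1 in 4C, and 115 and 44.7 in 8C. In 16C it held 20.7 and 34.0, in EM 21.6 and 27.0, in CM 58.7 and 30.02, and in BL 64.9 and 91.9. The 2C embryos lay below both MII and both 4C samples, and 16C and EM were the lowest stages. The stage effect of MCM7 had an adjusted p of 0.0293 from limma, which was lost in 9 of 24 alternatives, among them total reads (adjusted p = 0.246) and edgeR (adjusted p = 0.0746). By limma it was also lost without MII replicate 1, 4C replicate 1 or 2, 16C replicate 1, EM replicate 1 or 2, or BL replicate 2, with adjusted p values from 0.0504 to 0.0802. The change at EGA did not pass (-0.72, SE 0.42, limma adjusted p = 0.135), and scaled by total reads it was -0.25 (limma adjusted p = 0.615). In the reference, MCM7 contains the microRNA genes MIR106B, MIR93 and MIR25.

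MCM3 (XLOC_039719) had a different course, low in oocytes and in 16C embryos. MII oocytes held 9.23 and 8.51 normalised reads, 2C embryos 32.4 and 38.7, 4C embryos 48.0 and 21.9, and 8C embryos 41.4 and 33.3. The 16C embryos held 9.80 and 3.23, with 9 and 2 reads, and the later stages 20.1 and 28.2 in EM, 28.8 and 20.6 in CM, and 32.5 and 30.1 in BL. The samples of MII and 16C lay below all others without overlap.

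MCM3 had a stage effect (limma adjusted p = 0.0144), which was lost without 16C replicate 2 (adjusted p = 0.0585) and by edgeR (adjusted p = 0.0553). From MII to 4C the log2 change was 1.76 (SE 0.63, limma adjusted p = 0.0918). Scaled by total reads it was 2.37 and passed (limma adjusted p = 0.0268). Between the periods it was -0.05 (SE 0.51, limma adjusted p = 0.93), and the direction turned under total reads.

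MCM5 (XLOC_056850) and MCM2 (XLOC_037776) had the fewest reads of the 10 genes, 143 and 155 over all samples, and did not pass the filter for the comparison of periods. MCM5 held 24.0 and 18.1 normalised reads in MII, 6.33 and 1.09 in 2C, 6.46 and 4.87 in 4C, and 10.8 and 4.59 in 8C. EM held 2.32 and 2.74, and CM 5.54 and 4.69. MCM5 had no read in either 16C embryo, where 3 reads would have been 3.27 and 4.85 normalised reads, and 39.6 and 11.1 in BL, with 39 and 7 reads. Both oocytes and both BL lay above every other sample. The stage effect of MCM5 (limma adjusted p = 0.00394) held in each of 24 alternatives, with adjusted p values up to 0.0176. MCM2 held 20.3 and 16.0 normalised reads in MII, 18.0 and 1.15 in 8C, with 10 reads and 1 read, and between 3.17 and 13.2 in the other samples. The stage effect of MCM2 did not pass (limma adjusted p = 0.727), and every stage overlapped with the next in the order of levels.

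**Figure D3:**
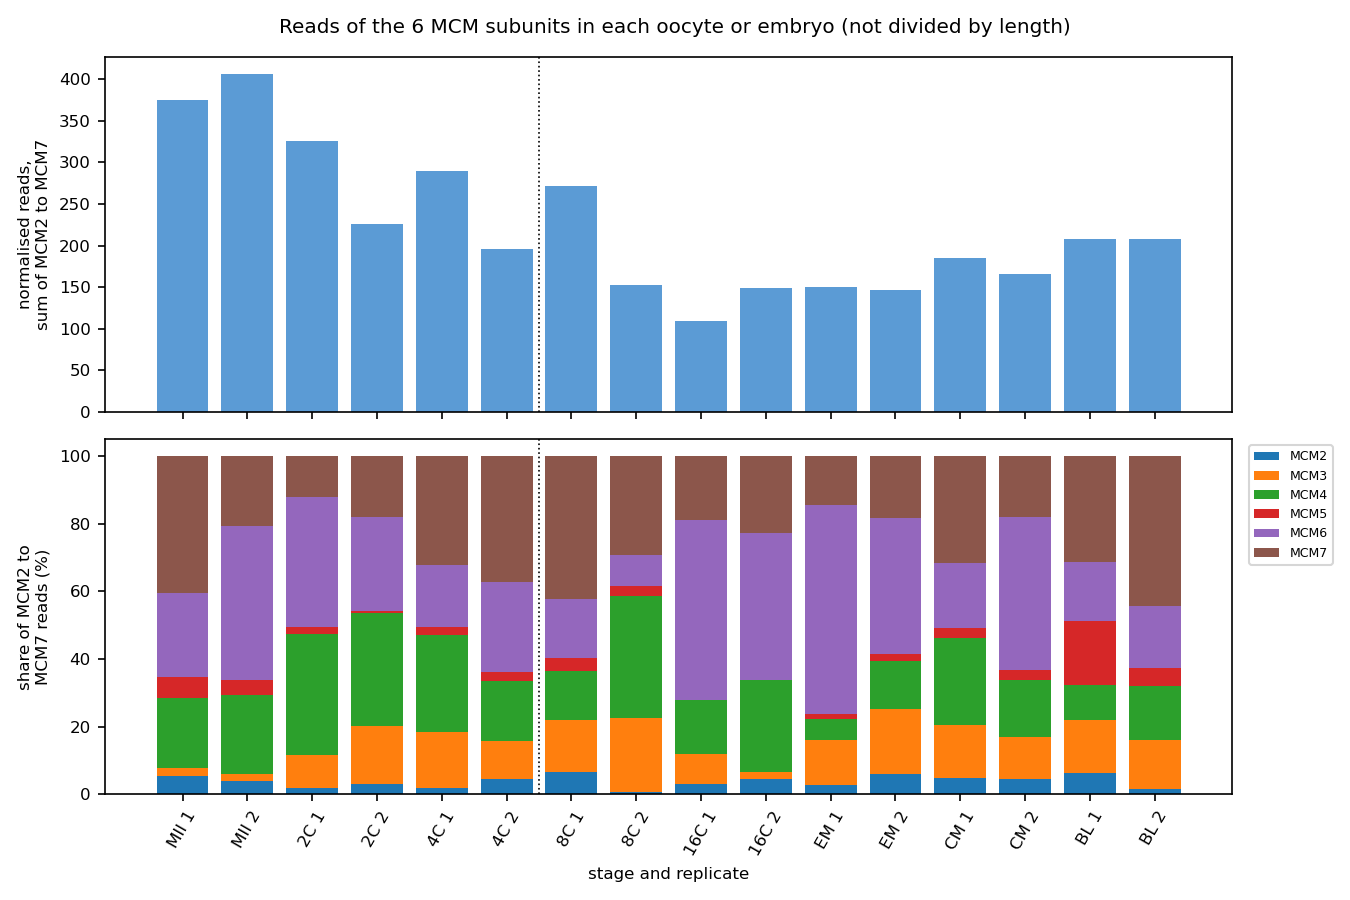
Upper bars, sum of the normalised reads of MCM2 to MCM7 in each sample; lower bars, the share (%) of each subunit in that sum, in colours, with a dotted line at EGA. The sum is highest in the MII oocytes, at 375 and 406, and the share of MCM3 is 2.46 and 2.09% in the oocytes and 2.17% in 16C replicate 2.

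The share of each subunit in the reads of the 6 genes differed between samples. MCM3 made up 2.46 and 2.09% in MII and between 9.98 and 17.2% in 2C and 4C embryos. MCM6 made up 24.6 and 45.5% in MII, 38.4 and 28.0% in 2C, 18.5 and 26.6% in 4C, and 17.2 and 9.02% in 8C. Its share was 53.0 and 43.5% in 16C, 61.9 and 40.3% in EM, 19.2 and 45.2% in CM, and 17.6 and 18.3% in BL. MCM5 made up 19.0 and 5.34% in BL, and no more than 6.40% in any sample before EGA. MCM4 made up 26.6 ± 7.23% before EGA (SD, n = 6) and 18.3 ± 8.84% after it (SD, n = 10), and these ranges overlapped. No test of the shares was made, and since reads were not divided by length they are not shares of molecules.

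A stage effect was called for 5 of the 10 genes (CDC6, MCM3, MCM4, MCM5 and MCM7), beside 66.7% of all 9670 loci tested. Between the periods 8 members could be tested and 2 were called, both lower, beside 66.8% of 6910 loci called, 29.9% lower and 36.9% higher. No member had periods without overlap, beside 30% of the loci tested in either direction, 16% higher and 14.1% lower. The median log2 change of the 8 members was -0.81 and that of all loci 0.23. With total reads as the scale these medians were -0.33 and 0.65. By edgeR 5 members were called, all lower, beside 63.6% of loci called and 31% lower. By DESeq2 4 were called, all lower, beside 67.2% of loci called and 30% lower.

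From 4C to 8C the 9 members other than CDC6 had log2 changes between -1.02 (MCM6) and 1.18 (GMNN), and the median absolute change was 0.25 for the 10 members and 1.69 for all loci. From 8C to BL no member was called by limma, edgeR or DESeq2, and none had an unadjusted p under 0.05 by limma, beside 10.1% of loci called by limma, 6.44% higher and 3.63% lower. By edgeR 3.51% of loci were called, 1.46% higher and 2.05% lower, and by DESeq2 6.79%, 2.96% higher and 3.84% lower, so that the balance of directions turned with the tool. The log2 change of MCM5 there was 1.45 (SE 0.83, limma adjusted p = 0.306), and without BL replicate 1 it was 0.57 (limma adjusted p = 0.785). From MII to 4C 1 of 10 members was called, beside 8.68% of loci. The comparisons share samples, so their changes are not independent of each other. Scaled by total reads, the median log2 change of all loci from MII to 4C was 0.63 instead of 0.15 and from 8C to BL 0.40 instead of 0.13.

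**Figure D4:**
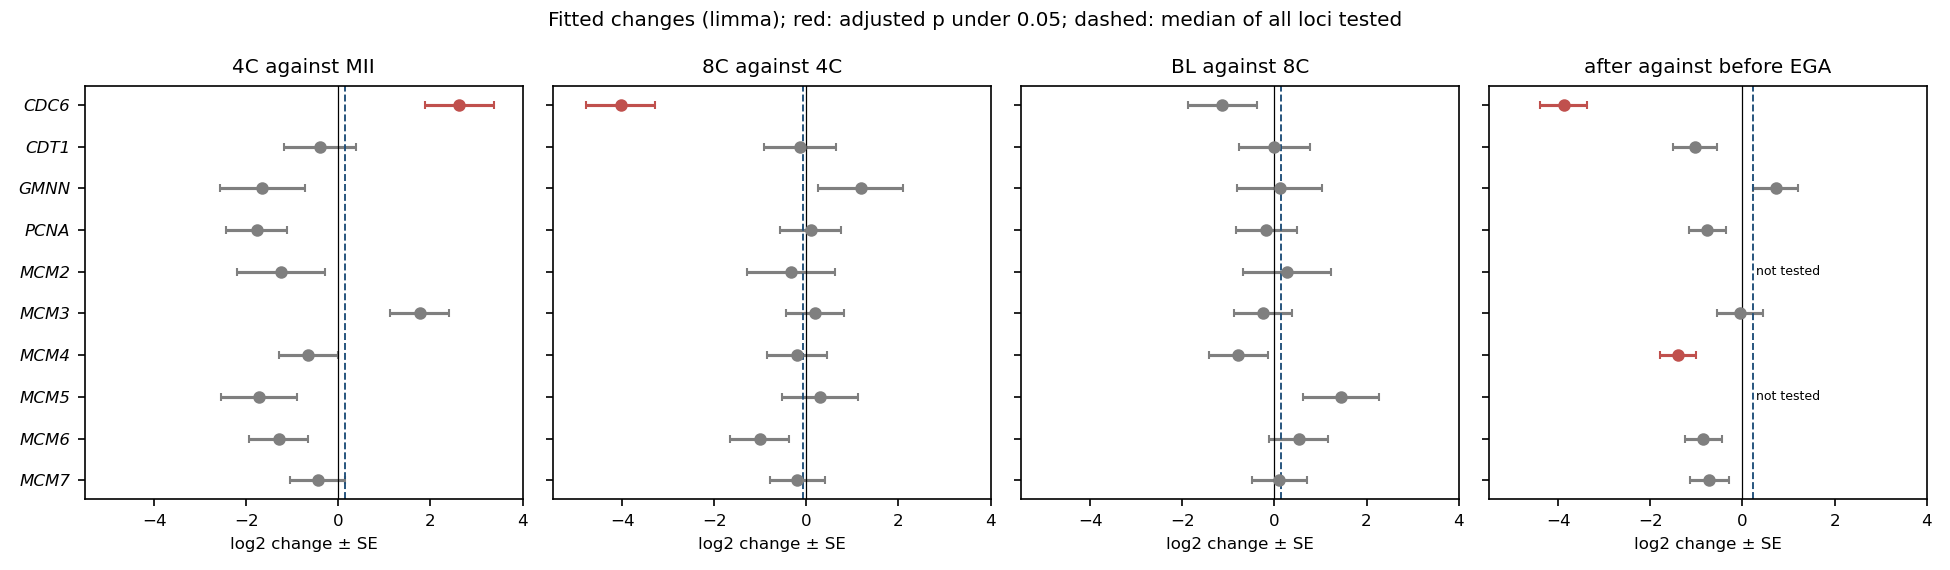
Fitted log2 change with its SE (limma) for the 10 genes in 4 comparisons; red points passed an adjusted p of 0.05, grey points did not, and the dashed line is the median of all loci tested. CDC6 stands at 2.63, -4.03 and -3.88 in 4C against MII, 8C against 4C and after against before EGA, and MCM4 at -1.40 in the last.

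The remaining replication machinery was counted in 12 lists. Of 96 names 91 were found, 66 could be tested between the periods, and 20 were higher and 18 lower after EGA. Called were thus 57.6% of them, beside 66.8% of all loci, where 36.9% were higher and 29.9% lower. Their median log2 change was 0.03, beside 0.23 for all loci. In the origin recognition complex, the platform on which CDC6 acts, 1 of 6 subunits was higher and 2 were lower. ORC5 fell from 84.6 to 4.09 normalised reads (log2 change -4.18, limma adjusted p = 4.4e-08) and ORC2 from 54.5 to 7.34 (-3.08, adjusted p = 6.1e-05), while ORC1 rose from 10.6 to 26.3 (1.43, adjusted p = 0.0092). ORC3, ORC4 and ORC6 did not pass.

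Among the factors that activate the loaded helicase, 3 of 11 tested were higher and 4 lower. GINS1, a subunit of the active helicase, rose from 12.8 to 112 normalised reads (log2 change 3.94, limma adjusted p = 1.4e-05) and DBF4, the activator of the kinase CDC7, from 8.75 to 85.3 (3.24, adjusted p = 4.8e-05). DONSON, a factor of helicase assembly, fell from 31.4 to 6.01 (-2.10, adjusted p = 0.00211). CDC7 itself was lower, at 12.9 before and 6.39 after EGA (-1.68, adjusted p = 0.0306).

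At the fork, clamp loaders and clamp partners held 2 higher and 5 lower genes of 8 tested, with CHTF8 (-4.05, limma adjusted p = 2.5e-04), LIG1, the ligase of lagging strands (-2.91, adjusted p = 1.4e-04), and FEN1, the flap nuclease that binds PCNA (2.84, adjusted p = 9.1e-06), changing most. CHTF8 held 382 ± 237 normalised reads before EGA (SD, n = 6) and 94.2 ± 229 after it (SD, n = 10), so that it was uneven among the later samples and the periods overlapped. Polymerases delta and epsilon had 2 higher and 1 lower of 5, with POLE2 at -2.74 (limma adjusted p = 3.8e-05), POLE4 at 1.55 (adjusted p = 0.00379) and POLE3 at 1.25 (adjusted p = 0.0173). PRIM1, the primase subunit, was the only gene of polymerase alpha and primase tested and was higher (1.92, adjusted p = 0.0195). Of the single-strand binding RPA genes, RPA2 (1.44, adjusted p = 0.0102) and RPA3 (1.12, adjusted p = 0.0109) were higher.

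Fork protection and checkpoint genes had 3 higher and 2 lower of 10. HUS1 and WEE1 were at 0 in every sample before EGA and held means of 13.6 and 14.7 normalised reads after it, so that no fold is given, and RAD17 was lower (-2.57, limma adjusted p = 2.3e-04). For nucleotide supply the count was 3 higher and 1 lower of 7, with TK1 (1.71, limma adjusted p = 0.00372) and RRM2 (1.54, limma adjusted p = 0.00526) among the higher ones. Of the genes that degrade licensing factors, SKP2, which targets CDT1, was lower (-2.64, limma adjusted p = 1.9e-06) and SKP1 higher (1.10, adjusted p = 0.0233), and 5 did not pass.

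E2F and RB genes, which control the transcription of many replication genes in somatic cells, had 2 higher and 2 lower of 6. RBL2 fell from 232 to 24.1 normalised reads (-3.77, limma adjusted p = 1.3e-06) and RB1 from 26.0 to 2.31 (-3.38, adjusted p = 1.5e-05), and TFDP2 rose from 5.71 to 45.7 (3.06, adjusted p = 1.4e-06). Between the periods neither MCMBP nor MCM3AP, which bind MCM proteins, passed, and MCM8 and MCM9 did not pass the filter for this comparison. Of the geminin relatives GMNC had 4 reads in all.

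**Figure D5:**
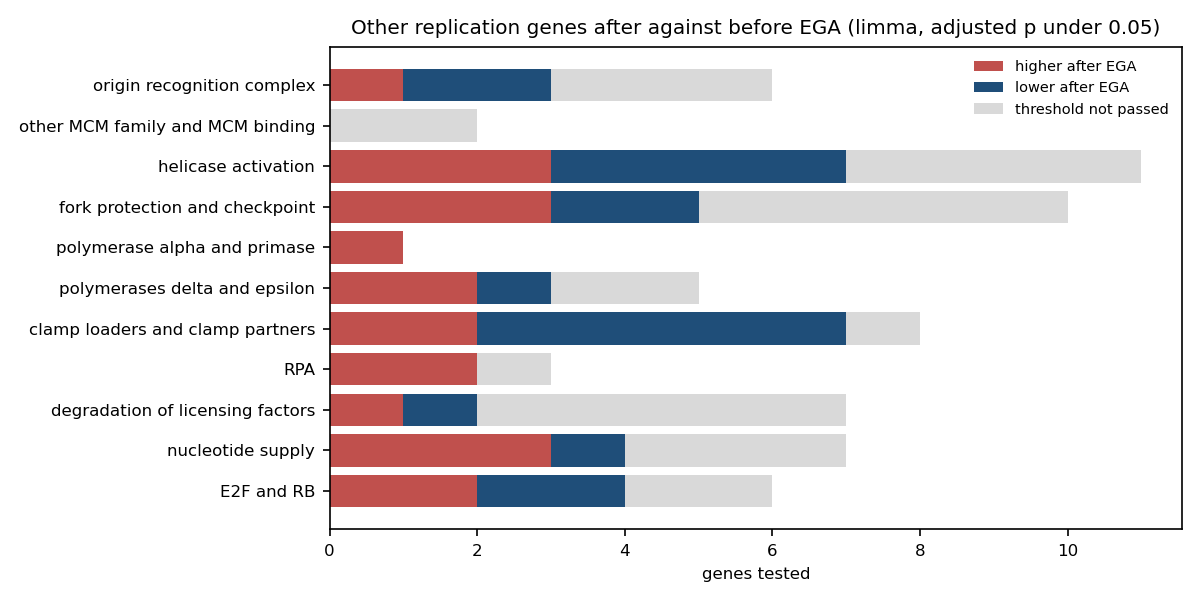
Number of genes tested in each list of other replication genes, split into those higher after EGA (red), lower after EGA (blue) and those that did not pass an adjusted p of 0.05 (grey). Clamp loaders and clamp partners hold 5 lower and 2 higher genes, and the RPA list 2 higher and none lower. Of all loci tested, 36.9% were called higher and 29.9% lower.

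The loci most like each member across the 16 samples were found by Pearson's correlation of log2(normalised reads + 1), given as a description. For CDC6 they were a pair of assembled transcripts without a gene name (r = 0.982 for both) and FANK1 (r = 0.977), which held 15.7 normalised reads before and 0.229 after EGA. For MCM4 they were RAD51C (r = 0.866), a recombination gene, HBEGF (r = 0.856) and TSC22D2 (r = 0.851). For MCM6 they were ASAP1 (r = 0.88), C3H1orf146 (r = 0.88) and SPRYD4 (r = 0.849), and for PCNA the nuclear pore genes NUP160 (r = 0.859) and NUP155 (r = 0.844) and the mRNA export gene THOC7 (r = 0.855). For CDT1 they were PTDSS1 (r = 0.868), MRI1 (r = 0.828) and VPS16 (r = 0.818), and for GMNN RAB33B (r = 0.791), CAST (r = 0.782) and METTL3 (r = 0.766). For MCM2 they were HSCB (r = 0.837), SQSTM1 (r = 0.815) and MKL1 (r = 0.743), and for MCM3 INTS10 (r = 0.847), VPS4A (r = 0.837) and PITRM1 (r = 0.835). For MCM5 they were NAP1L4 (r = 0.787), SEC13 (r = 0.782) and FURIN (r = 0.777), and for MCM7 they included NCOA1 (r = 0.79) and RPUSD3 (r = 0.769). Among the members themselves, the 45 pairs had r between -0.59 and 0.75 with a median of 0.25, and 11 pairs exceeded 0.5. All these correlations share the libraries and their depth.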

How the data were processed

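Single oocytes and embryos (16 samples, 8 stages of 2) were amplified and sequenced by the authors. Per the labels, cutadapt, FastQC, TopHat, Cufflinks and HTSeq were used; versions, genome build, strand setting and the treatment of multiply mapped reads are not given in the sources used here. The deposited signal values are not divided by gene length. In each sample, 100% of the values above 0 were multiples of the smallest one (tolerance 0.01), from which read counts were restored, 607672 to 3379426 per sample.

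Members and lists were chosen with earlier results of these data known. Differences were fitted by limma 3.58.1 (R 4.3.3, with a trend) on log2(deposited value + 1), which understates changes of low genes, with Benjamini-Hochberg adjustment over all loci tested and a threshold of 0.05. The filterByExpr rule of edgeR left 9670 loci for the 8 stages, with all 10 members, and 6910 for before (6 samples) against after EGA (10), with 8 members. The alternatives were TMM factors (edgeR 4.0.16), total reads, pseudocounts 0.5 and 5, all loci with reads, both count tools (edgeR, DESeq2 1.42.0), a replicate block, leaving out single samples or both 8C embryos, and fits of the compared stages only. Named were all members, up to 3 genes per list with the largest called change and the 3 loci most like each member, except 2 genes that are not reported here; other genes (APRT, the microRNA genes, CDC7, markers, and genes that did not pass) were added after their values were seen. Whether samples of a stage came from separate animals is not stated, so p-values measure the spread between these samples, which may be technical. The fit of the periods held no term for stage. Its spread, and the SD of each period, therefore also include differences between the stages pooled in a period. The fits were also run on simulated counts, and the outcome is not reported here. A change that did not pass the threshold may still be present. Gene names and overlaps in the reference follow RefSeq annotation of ARS-UCD2.0.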

Additional observations from a re-analysis of the deposited data

Results flagged for a closer look

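In 20 sets of values, those of 10 members before and after EGA, 3 samples lay far from the others of their period; for values from a single normal distribution chance gives about 1 such set in 20, and reads pooled over stages need not follow one. MCM5 in BL replicate 1 held 39.6 normalised reads with the next sample after EGA at 11.1. CDC6 in 8C replicate 2 held 27.5, with the next at 9.01. GMNN in MII replicate 2 held 62.8, with the next sample before EGA at 19.4. Each period pools several stages.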

How the results depend on the processing

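Of the 10 members, 5 had a stage effect beside 66.7% of loci, against 3 with total reads (69.7% of loci), 3 by edgeR (61.8%), 6 with TMM (67%), 6 by DESeq2 (61.4%) and 3 to 7 with 1 sample left out. Between the periods 2 of 8 were called beside 66.8% of loci, against 5 by edgeR (63.6%) and 4 by DESeq2 (67.2%). With 1 sample left out 2 to 4 were called, beside 4390 to 4650 of 6910 loci. From MII to 4C 1 was called beside 8.68% of loci, against 2 with total reads (11.4% of loci), 0 without the filter (4.42%), 0 by edgeR (4.12%), 0 with the compared stages alone (1.82%) and 0 to 1 with 1 sample left out. Over all loci, 4619 were called between the periods and 7075 without the filter; 839 from MII to 4C, against 398 by edgeR, 176 with these stages alone and 29 to 1187 with 1 sample left out, fewest without 4C replicate 1; 3560 from 4C to 8C, against 1297 alone and 1993 to 3707; and 974 from 8C to BL, against 339 by edgeR, 0 alone and 235 to 1429. The share of calls that were higher was 74.7% from MII to 4C, against 94.3% with total reads, 64% with a pseudocount of 5 and 60.1% by DESeq2. From 4C to 8C it was 48.1%, against 60.5% by edgeR and 58.5% by DESeq2, and from 8C to BL 64.0%, against 74.2% with total reads, 41.6% by edgeR and 43.5% by DESeq2.

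Replicate numbers did not pair the samples: over 28 pairs of stages the correlation of deviations lay between -0.26 and 0.13, with 1 pair over 0.1. With a replicate block 0 members were called from MII to 4C, beside 7.8% of loci (CDC6, limma adjusted p = 0.0509), and the block changed no other call of a member.

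Directions turned only for log2 changes that had not passed. With total reads these were MCM3 between the periods (0.37), MCM4 (0.10), MCM7 (0.30) and CDT1 (0.31) from MII to 4C, and MCM3 (0.069), CDT1 (0.29) and PCNA (0.14) from 8C to BL. By edgeR they were MCM2 (0.42) and MCM7 (0.037) from 4C to 8C and MCM2 (-0.17), MCM7 (-0.12) and GMNN (-0.10) from 8C to BL. By DESeq2 they were MCM2 (0.34) from 4C to 8C and MCM2 (-0.12), MCM7 (-0.017) and GMNN (-0.054) from 8C to BL. With TMM they were MCM7 (-0.033) and GMNN (-0.0018) from 8C to BL. With 1 sample left out MCM3 ranged from -0.31 to 0.21 between the periods and CDT1 from -0.97 to 0.18 from MII to 4C. From 4C to 8C the ranges were -0.82 to 0.41 for MCM4, -0.40 to 0.13 for CDT1, -0.36 to 0.73 for MCM3, -0.24 to 0.84 for MCM5, -0.17 to 2.53 for GMNN, -1.91 to 1.24 for MCM2, -0.87 to 0.48 for MCM7 and -0.0080 to 0.19 for PCNA. From 8C to BL they were -1.31 to 1.84 for MCM2, -0.32 to 1.37 for MCM6, -0.57 to 0.78 for MCM7, -0.27 to 0.26 for CDT1, -1.23 to 1.47 for GMNN and -0.57 to 0.21 for PCNA. The causes were not tested.

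Shares per coding length were not run, and summing loci of a name changed nothing since each member had 1 locus. With 2 samples per stage, MCM5 and MCM2 had the fewest reads of the members, 143 and 155 in all.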
